A study of Homo sapiens with 14 samples.

Results

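The miR-30 family was described in 10 of the 2588 mature miRNA rows of each of 2 count tables. The members were chosen by name as both arms of 5 hairpins, hsa-miR-30a-5p and hsa-miR-30a-3p, hsa-miR-30b-5p and hsa-miR-30b-3p, hsa-miR-30c-5p and hsa-miR-30c-1-3p, hsa-miR-30d-5p and hsa-miR-30d-3p, and hsa-miR-30e-5p and hsa-miR-30e-3p, written below without the species prefix. A second miR-30c hairpin yields the same 5p arm and its own 3p arm, miR-30c-2-3p, which is not among the members and is given only beside them. The study asked which miRNAs carry internal N7-methylguanosine (m7G) in A549 cells, an established human lung adenocarcinoma line grown in DMEM with serum, and pulled down its decapped total RNA in 2 ways before small RNA sequencing. In BoRed-seq, sodium borohydride in the presence of free m7GTP reduced m7G, low pH turned the reduced residues into sites without a base, and a biotinylated aldehyde-reactive probe let streptavidin beads capture them (Red, n = 2), while the control RNA met borohydride already quenched with acid (Ctrl, n = 2). In m7G-RIP-seq, heat-denatured RNA was immunoprecipitated with an antibody against m7G (IP, n = 5) and set against the RNA before precipitation (Input, n = 5). All groups share the same untreated cell line. The labels do not say whether replicates came from separate cultures, so p-values measure only the spread between these libraries, which may be technical.

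A miRNA hairpin is cut into a duplex of a 5p and a 3p arm, and usually the arm that is loaded into Argonaute is kept while the other is degraded. The loaded arm finds its target mRNAs chiefly through its seed, bases 2 to 8 of the mature sequence. miR-30 miRNAs are abundant in epithelia such as those of lung and kidney, where they are known to repress SNAI1 and other drivers of the epithelial-mesenchymal transition. m7G is best known from mRNA caps, tRNA and rRNA, and both chemistries used here bear on guanines.

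The mature sequences are shown because they divide the family into arms with a shared seed and show how little some members differ. A RefSeq table (GRCh38.p14) held 6 of the 10 members, and miR-30c-2-3p beside them. The arms of miR-30b and miR-30d had no entry. Capitals mark the seed.
miR-30a-5p: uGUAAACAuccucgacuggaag
miR-30c-5p: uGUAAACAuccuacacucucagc
miR-30e-5p: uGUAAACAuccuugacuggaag
miR-30a-3p: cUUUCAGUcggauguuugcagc
miR-30e-3p: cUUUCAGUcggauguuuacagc
miR-30c-1-3p: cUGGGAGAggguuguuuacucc
miR-30c-2-3p: cUGGGAGAaggcuguuuacucu

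The 5p arms shared the seed GUAAACA, which no other mature miRNA of the table had. The 3p arms fell into a UUUCAGU pair (miR-30a-3p and miR-30e-3p) and a UGGGAGA pair (the 3p arms of both miR-30c hairpins), and the second of these seeds was also that of miR-6788-5p. Counted from 1 at the 5′ end, miR-30a-5p and miR-30e-5p differed by C13U alone, and miR-30a-3p and miR-30e-3p by G18A alone, miR-30a being given first. With a single difference, reads with a mismatch could be placed on either member of these pairs, so the split of their counts is uncertain. The sequences held 2 G in miR-30c-5p, 5 in each of miR-30a-5p, miR-30e-5p and miR-30e-3p, 6 in miR-30a-3p, 7 in miR-30c-2-3p and 8 in miR-30c-1-3p.

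In GRCh38, with the hairpin genes of GENCODE, the family lay in 3 pairs of neighbours. MIR30E (chr1:40754355-40754446) and MIR30C1 (chr1:40757284-40757372) lay 2837 bases apart in introns of NFYC, which encodes a subunit of the transcription factor NF-Y, both on the plus strand. MIR30A (chr6:71403551-71403621, in an intron) and MIR30C2 (chr6:71376960-71377031, in an exon) lay 26519 bases apart in the non-coding gene LINC00472, both on the minus strand. MIR30B (chr8:134800520-134800607) and MIR30D (chr8:134804876-134804945) lay 4268 bases apart in an intron of an unnamed gene, on the minus strand. miR-30c-5p is made from both MIR30C1 and MIR30C2, so its row cannot be assigned to either.

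Library totals were 242085 and 277498 counts in Red, 4678102 and 5874405 in Ctrl, 2854811 to 6452759 in IP and 7097379 to 14874685 in Input, so low-count arms are least precisely measured in Red. Marker miRNAs were summed in the controls as CPM (counts scaled to the library total). The 6 epithelial markers summed to 184 to 219 CPM in Ctrl and 337 to 988 in Input. Most of this was miR-200b-3p, with miR-200a-3p and miR-200c-3p next. The remaining epithelial markers stayed at or below 2.38 CPM, with miR-203a-3p at 0 throughout. The summed level of 5 blood markers was at most 2.62 CPM, that of 3 muscle markers at most 6.20 CPM, and the liver marker miR-122-5p was at 0. The 3 markers on the neuron list summed to 332 to 712 CPM, nearly all of it miR-9-5p, while miR-124-3p stayed at or below 1.21 CPM. The m7G-RIP-seq libraries also parted by replicate: after a first principal component with 57.1% of the variance, which separated IP from Input, a second with 15.3% set replicates 1 to 3 of both groups apart from replicates 4 and 5. Values within these sets are given beside the results they change.

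As a whole the family took a smaller share of the counts in both pulldowns, and its 5p arms had the lower share. Its share was 2.02% ± 0.09 of the counts in Ctrl and 0.677% ± 0.087 in Red (SD, n = 2 each), and 3.36% ± 0.34 in Input and 1.36% ± 0.29 in IP (SD, n = 5 each). The 3p arms together held 0.0516% ± 0.0056 in Ctrl and 0.159% ± 0.0093 in Red (SD, n = 2 each), and 0.0875% ± 0.0041 in Input and 0.222% ± 0.054 in IP (SD, n = 5 each), higher in every pulldown library than in any control library. There were 38.3 ± 2.5 reads of 5p arms for each read of a 3p arm in Ctrl against 3.28 ± 0.80 in Red (SD, n = 2 each), and 37.5 ± 4.4 in Input against 5.21 ± 0.48 in IP (SD, n = 5 each). Shares of a library depend on all other miRNAs, and miR-21-5p alone took 79.7% ± 1.03 of the Ctrl counts and 26.8% ± 0.15 of the Red counts (SD, n = 2 each). It took 42.3% ± 3.57 of the Input counts and 5.39% ± 0.77 of the IP counts (SD, n = 5 each). The part of these shifts of miR-21-5p in the shares was not tested.

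The order of the members by level differed between the assays and between the controls and the pulldowns. The control libraries are bulk RNA of the cell line, so a low level there could be few cells with the miRNA or little of it per cell, which cannot be told apart. The mature sequences printed above were 22 or 23 bases long, and levels are given in CPM with no correction for length. In Ctrl, miR-30a-5p (14453 ± 462 CPM) stood above miR-30d-5p (3747 ± 991 CPM), which was followed by miR-30c-5p (813 ± 302 CPM), miR-30e-5p (582 ± 25 CPM) and miR-30a-3p (406 ± 43 CPM), with SD over n = 2. The lowest in Ctrl were miR-30d-3p (10.4 ± 1.9 CPM), miR-30b-3p (5.57 ± 0.31 CPM) and miR-30c-1-3p (4.65 ± 0.08 CPM). In Red, miR-30a-5p (2235 ± 299 CPM) and miR-30d-5p (2088 ± 294 CPM) overlapped at the top and miR-30a-3p (1267 ± 43 CPM) came next. In Input, miR-30a-5p (14803 ± 1597 CPM) and miR-30d-5p (14338 ± 1957 CPM) came first and did not differ beyond their spread. They were followed by miR-30c-5p (3103 ± 952 CPM), miR-30a-3p (743 ± 39 CPM), miR-30e-5p (450 ± 109 CPM), miR-30e-3p (100.5 ± 9.0 CPM) and miR-30b-5p (78.01 ± 45.8 CPM), the last 2 overlapping, with SD over n = 5. The lowest in Input were miR-30b-3p (14.6 ± 2.8 CPM) and miR-30c-1-3p (13.1 ± 2.6 CPM), which overlapped each other, and miR-30d-3p (3.95 ± 1.22 CPM). In IP, miR-30d-5p alone stood first at 9448 ± 2267 CPM, and miR-30a-3p (1973 ± 523 CPM) had a higher mean than miR-30a-5p (1275 ± 204.98 CPM), with overlapping ranges. miR-30c-5p (671 ± 126 CPM) came next, and the 3p arms of miR-30e (143 ± 28 CPM), miR-30b (51.3 ± 19.0 CPM) and miR-30c-1 (43.8 ± 11.9 CPM) then preceded miR-30e-5p (27.4 ± 7.5 CPM), whose range overlapped those of miR-30b-3p and miR-30c-1-3p. miR-30d-3p (4.73 ± 2.00 CPM) and miR-30b-5p (3.07 ± 2.15 CPM) came last in IP and overlapped.

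**Figure D1:**
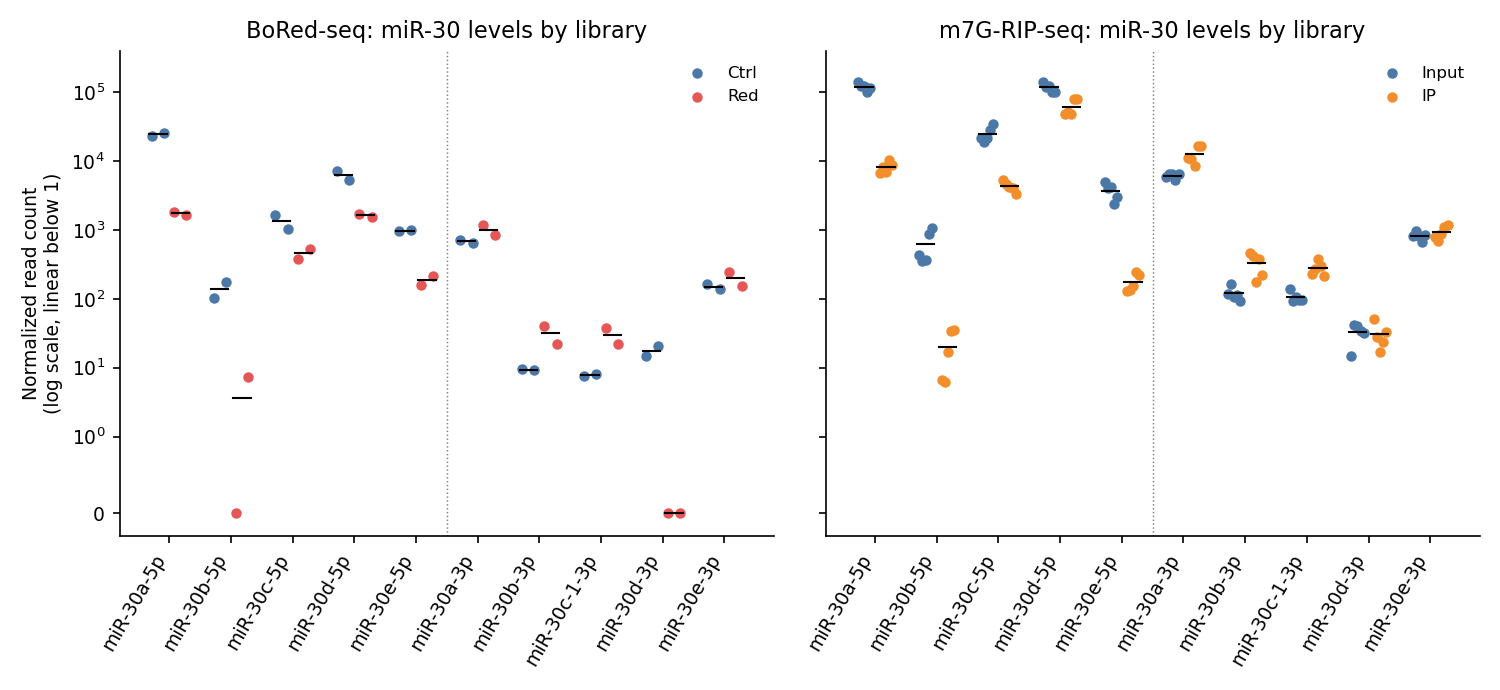
Normalized read counts of the 10 miR-30 members in each library (points) with group means (bars), on a log axis that is linear below 1, for BoRed-seq (Ctrl and Red, n = 2 each) and m7G-RIP-seq (Input and IP, n = 5 each). The 5p arms, left of the dotted line, lay lower in the pulldown in every case, while miR-30a-3p, miR-30b-3p and miR-30c-1-3p lay higher.

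To ask whether each arm was enriched by a pulldown, counts were scaled by median-of-ratios size factors and tested with DESeq2 over all miRNAs, a member being called at an adjusted p under 0.05. All 5 of the 5p arms were depleted in both assays. Across all miRNAs tested, 27.2% were called depleted in BoRed-seq with 29.9% in m7G-RIP-seq, against 6 and 5 of the 10 members. To be tested, a miRNA had to reach 10 counts in 2 (BoRed-seq) or 5 (m7G-RIP-seq) libraries and be given an adjusted p by DESeq2. miR-30b-5p in both assays and miR-30d-3p in BoRed-seq met the count rule in their control libraries, which favoured a call of depletion. With 10 counts required in every library, neither was tested and 4 members were called depleted in each assay. Across all 5p arms tested, 57 of 161 were depleted in BoRed-seq and 86 of 256 in m7G-RIP-seq. The median log2 enrichment of the family's 5p arms was -2.36 in BoRed-seq with -3.88 in m7G-RIP-seq, beside -0.55 and 0.03 over all 5p arms tested. Enriched members were 1 of 10 in BoRed-seq, where 32.2% of all miRNAs were called enriched, and 3 of 10 in m7G-RIP-seq, where 27.3% were. The enriched members were all 3p arms, and their shares of the family stand near or below these backgrounds.

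miR-30a-5p, the most abundant member in Ctrl and level with miR-30d-5p in Input, fell by a similar factor in both assays under median-of-ratios scaling. Its normalized counts were 22965 and 25709 in Ctrl and 1815 and 1662 in Red. In m7G-RIP-seq they were 140941, 122962, 124934, 99301 and 116445 in Input replicates 1 to 5 and 6687, 8295, 7003, 10403 and 8784 in IP replicates 1 to 5. Every pulldown library was far below every control library. The log2 enrichment was -3.81 ± 0.26 in BoRed-seq (SE, DESeq2 adjusted p = 3.05e-45), with -3.88 ± 0.18 for m7G-RIP-seq (SE, DESeq2 adjusted p = 3.13e-103). Only 14 of 400 miRNAs tested in BoRed-seq and 29 of 670 in m7G-RIP-seq had a lower value. Within replicates 1 to 3 and replicates 4 and 5 of m7G-RIP-seq it was -4.18 and -3.52. The difference between the assays was -0.07 on the log2 scale, with a 95% confidence interval from -0.69 to 0.56.

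miR-30e-5p, which differs from miR-30a-5p by a single base, had a log2 enrichment less negative than that member in BoRed-seq and more negative in m7G-RIP-seq. The difference between these members was not tested. Its normalized counts were 974 and 982 in Ctrl and 159 and 218 in Red. In m7G-RIP-seq they were 4947, 4022, 4135, 2395 and 3010 in Input and 129.3, 135, 156, 244 and 221 in IP. The groups did not overlap in either assay, and replicates 4 and 5 were the lowest in Input and the highest in IP. The log2 enrichment was -2.36 ± 0.33 in BoRed-seq (SE, DESeq2 adjusted p = 3.45e-12), with -4.38 ± 0.28 for m7G-RIP-seq (SE, DESeq2 adjusted p = 1.62e-54). Within the replicate sets of m7G-RIP-seq it was -5.01 in replicates 1 to 3 and -3.57 in replicates 4 and 5. For miR-30a-5p it was -4.18 and -3.52, so the members were close in replicates 4 and 5.

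miR-30b-5p had the lowest log2 enrichment of the 5p arms in both assays, from few reads. Its raw counts were 370 and 470 in Ctrl and 0 and 3 in Red, which after scaling was 30.1-fold lower in Red with an exact 95% counting interval from 10.3-fold to 146-fold. In m7G-RIP-seq its normalized counts were 434, 354, 361, 866 and 1076 in Input and 6.59, 6.15, 16.9, 34.5 and 35.5 in IP. The lowest Input library stood about an order of magnitude above the highest IP library. Replicates 4 and 5 held more of it than replicates 1 to 3 in Input and in IP, by 2.53 and 3.55 times. The m7G-RIP-seq log2 enrichment was -4.94 ± 0.53 (SE, DESeq2 adjusted p = 1.32e-19), and within the sets it was -5.44 and -4.83. In BoRed-seq the adjusted p was 1.41e-06 (DESeq2). The fitted BoRed-seq log2 value was -4.09 without Red replicate 1 and -7.75 without Red replicate 2, which left 3 and 0 Red counts, so the last is set by the fit.

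miR-30d-5p was as abundant as miR-30a-5p in Input but was depleted least of the 5p arms in m7G-RIP-seq. Its normalized counts were 7231 and 5298 in Ctrl and 1685 and 1559 in Red. In m7G-RIP-seq they were 141895, 119091, 125103, 99098 and 100566 in Input and 48264, 51546, 47945, 78641 and 79429 in IP. No library of a pulldown reached the lowest control library, although IP replicates 4 and 5 came closer than the other 3. The log2 enrichment was -1.95 ± 0.29 in BoRed-seq (SE, DESeq2 adjusted p = 1.27e-10), with -0.94 ± 0.22 for m7G-RIP-seq (SE, DESeq2 adjusted p = 7.36e-05). Within the sets it was -1.42 in replicates 1 to 3 and -0.37 in replicates 4 and 5 (DESeq2 adjusted p = 1.53e-31 and 0.00238).

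miR-30c-5p, the 5p arm made from 2 hairpins and, of the 3 with a printed sequence, the one with the fewest guanines, was depleted in both assays as well. Its normalized counts were 1669 and 1044 in Ctrl and 378 and 533 in Red, and ran from 19081 to 34098 in Input and from 3329 to 5384 in IP. The groups did not overlap on this scale. The log2 enrichment was -1.57 ± 0.36 in BoRed-seq (SE, DESeq2 adjusted p = 3.27e-05), with -2.53 ± 0.22 for m7G-RIP-seq (SE, DESeq2 adjusted p = 2.61e-29). Within the replicate sets of m7G-RIP-seq it was -2.17 and -3.12. The BoRed-seq call depended on the scaling. In CPM, Ctrl (1027 and 600.0) and Red (421 and 786) overlapped, and with total counts as size factors the log2 value was -0.43 (DESeq2 adjusted p = 0.41). Total counts moved the median log2 value of all miRNAs by 1.08 in BoRed-seq with 0.36 in m7G-RIP-seq, and the other 4 of the 5p arms kept their calls under it.

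Among the 3p arms, miR-30a-3p, the most abundant, was enriched in m7G-RIP-seq. Its normalized counts were 5783, 6411, 6389, 5306 and 6434 in Input and 11256, 10739, 8471, 16708 and 16815 in IP. Every IP library was above every Input library, with IP replicates 4 and 5 the highest. The log2 enrichment was 1.08 ± 0.22 (SE, DESeq2 adjusted p = 6.04e-06), and within the sets 0.68 and 1.48. In BoRed-seq its normalized counts were 710 and 653 in Ctrl and 1163 and 839 in Red, which did not overlap. The BoRed-seq log2 value of 0.55 ± 0.31 (SE) did not pass the test (DESeq2 adjusted p = 0.11). It passed at 1.64 with total counts as size factors (DESeq2 adjusted p = 3.9e-06) and at 1.04 with the Ctrl counts thinned to the Red depth (DESeq2 adjusted p = 0.0044).

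The miR-30b and miR-30c-1 hairpins had 3p arms of low level and similar behaviour. miR-30b-3p had 118, 165, 108, 114 and 93.3 normalized counts in Input and 458, 423, 177, 379 and 222 in IP. Its groups did not overlap, and the log2 enrichment was 1.47 ± 0.31 (SE, DESeq2 adjusted p = 9.71e-06). miR-30c-1-3p had 140, 93.4, 108, 95.7 and 95.9 normalized counts in Input and 232, 273, 379, 298 and 217 in IP. These groups did not overlap either, and the log2 enrichment was 1.40 ± 0.23 (SE, DESeq2 adjusted p = 6.43e-09). In BoRed-seq these 2 arms rest on few reads. miR-30b-3p had raw counts of 34 and 25 in Ctrl and 11 and 9 in Red, and miR-30c-1-3p had 27 and 22 in Ctrl and 10 and 9 in Red, from the much smaller Red libraries. The scaled values of both were higher in each Red library than in each Ctrl library. miR-30b-3p, at a log2 value of 1.72 ± 0.80 (SE), did not pass the test (DESeq2 adjusted p = 0.0537), and passed at 2.80 with total counts (DESeq2 adjusted p = 0.0014). miR-30c-1-3p was called enriched at 1.90 ± 0.83 (SE, DESeq2 adjusted p = 0.0389). The call was lost without any single library, Ctrl replicate 1 (DESeq2 adjusted p = 0.416), Ctrl replicate 2 (0.267), Red replicate 1 (0.274) or Red replicate 2 (0.0971).

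The other 3p arms were not called enriched in either assay with median-of-ratios scaling. miR-30e-3p ran from 657 to 978 normalized counts in Input and from 701 to 1160 in IP, and the groups overlapped (log2 value 0.16 ± 0.20, SE, DESeq2 adjusted p = 0.51). Within the sets its log2 value was -0.19 in replicates 1 to 3 and 0.54 in replicates 4 and 5, where it was called enriched (DESeq2 adjusted p = 0.00992). In BoRed-seq it had 161 and 138 in Ctrl and 244 and 152 in Red, which overlapped (log2 value 0.39 ± 0.40, SE, DESeq2 adjusted p = 0.41). In CPM its BoRed-seq groups did not overlap (79.3 to 99.2 in Ctrl and 223.4 to 273 in Red). With total counts as size factors it was called enriched in both assays, at 1.47 in BoRed-seq (DESeq2 adjusted p = 0.0013), with 0.51 for m7G-RIP-seq (DESeq2 adjusted p = 0.011), and in BoRed-seq also with Ctrl thinned (1.32, DESeq2 adjusted p = 0.042). miR-30d-3p was the member with the lowest mean in Input and in Red. It had 13 to 65 raw counts in an Input library and 8 to 39 in an IP library, which overlapped when scaled (log2 value -0.08 ± 0.42, SE, DESeq2 adjusted p = 0.88). In BoRed-seq it had 53 and 55 raw counts in Ctrl and 0 in both Red libraries, and the call of depletion had a DESeq2 adjusted p of 0.0126. With a floor of 3 counts in each Red library, it was at least 1.90-fold lower in Red. This call too was lost without any single library, with adjusted p-values of 0.0608 without Red replicate 1, 0.0802 without Red replicate 2 and 0.194 without Ctrl replicate 1 (DESeq2), and none was given without Ctrl replicate 2. The median log2 value of the family's 3p arms was 0.55 in BoRed-seq, also with miR-30d-3p at its bound, and 1.08 in m7G-RIP-seq, beside -0.41 over 163 and -0.15 over 274 3p arms tested.

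**Figure D2:**
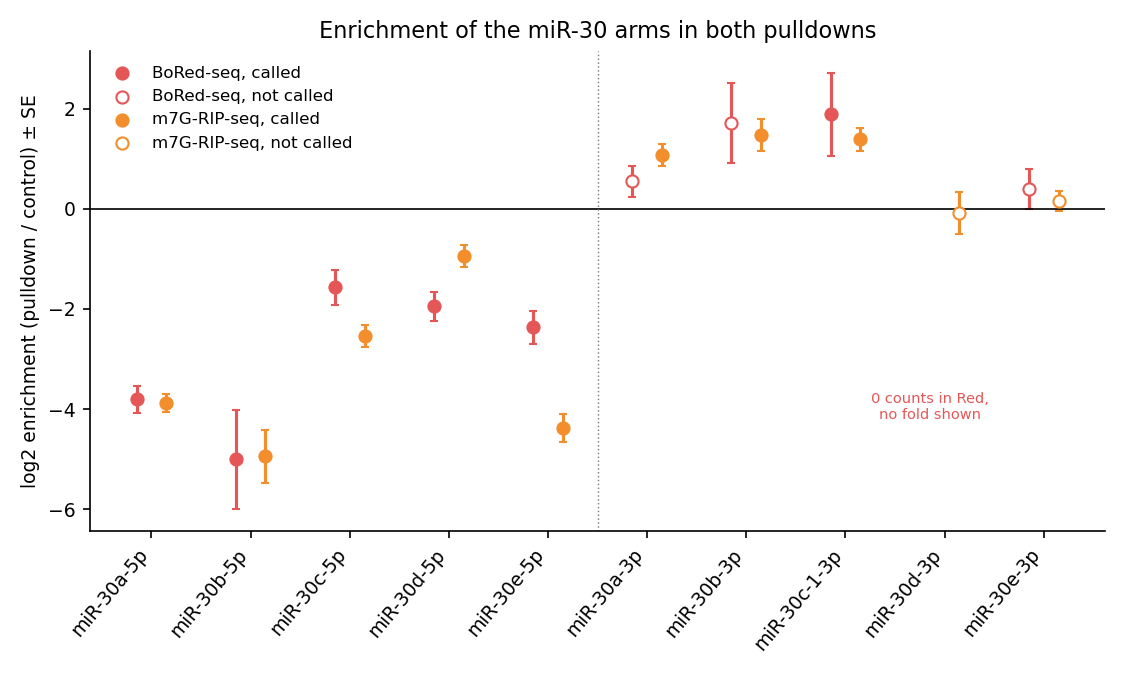
Log2 enrichment of each miR-30 arm (points, filled where called) with its SE (bars) in BoRed-seq (Red over Ctrl, n = 2 each) and m7G-RIP-seq (IP over Input, n = 5 each). The 5p arms lie between -5.01 and -0.94, all called, and the 3p arms with a fold lie between -0.08 and 1.90. miR-30d-3p has no BoRed-seq point because both Red libraries had 0 counts.

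The arms of a hairpin were next compared within each library, where the library size and the scaling cancel. The log2 ratio of 5p to 3p counts, with 0.5 added to each arm, was tested with limma over all hairpins with both arms measured, 119 in BoRed-seq with 175 in m7G-RIP-seq. The 5p arm fell against the 3p arm in 4 of the 5 miR-30 hairpins in each assay, while this was called for 10.1% of all hairpins in BoRed-seq with 18.9% in m7G-RIP-seq. Both arms had to pass the count filter, which miR-30b-5p met through its control libraries, so a fall for miR-30b was favoured. In BoRed-seq miR-30d-3p met it in the same way, which favoured a rise for miR-30d. The median change was -3.46 for the family and -0.03 for all hairpins in BoRed-seq, and -4.53 and 0.30 in m7G-RIP-seq. The same counts enter the enrichments above, so these ratios restate them in a form free of scaling.

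In the miR-30a hairpin there were 32.4 and 39.4 reads of the 5p arm for each 3p read in Ctrl and 1.56 and 1.98 in Red. In m7G-RIP-seq the ratios were 24.4, 19.2, 19.6, 18.7 and 18.1 in Input and 0.594, 0.772, 0.827, 0.623 and 0.522 in IP. The 3p arm was thus the more abundant in every IP library and the less abundant in every Input library. The log2 change was -4.34 ± 0.21 in BoRed-seq (SE, limma adjusted p = 0.000719), with -4.92 ± 0.19 for m7G-RIP-seq (SE, limma adjusted p = 1.12e-08), the 5th lowest of all hairpins in each. Within the replicate sets the m7G-RIP-seq change was -4.85 and -5.01.

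The miR-30e hairpin turned in the same way in IP. Its ratio was 6.04 and 7.12 in Ctrl and 0.652 and 1.44 in Red, with 1 Red library on either side of equality. The ratio was 6.05, 4.12, 5.12, 3.65 and 3.52 in Input and 0.165, 0.193, 0.179, 0.224 and 0.190 in IP, the tightest of the IP groups on the log2 scale. The log2 change was -2.76 ± 0.43 in BoRed-seq (SE, limma adjusted p = 0.0129), with -4.53 ± 0.19 for m7G-RIP-seq (SE, limma adjusted p = 1.89e-08), where it was -4.81 and -4.11 within the replicate sets.

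The miR-30b hairpin, whose 5p arm passed the count filter through its control libraries, had the lowest change of all hairpins in both assays. Its ratio was 10.9 and 18.8 in Ctrl, and 0 reads of the 5p arm stood against 11 of the 3p arm in Red replicate 1 and 3 against 9 in Red replicate 2. In m7G-RIP-seq it was 3.69, 2.15, 3.35, 7.58 and 11.5 in Input and 0.0144, 0.0145, 0.0952, 0.0909 and 0.160 in IP. Every pulldown library thus held more of the 3p arm, and every control library more of the 5p arm. The log2 change was -6.80 ± 1.15 in BoRed-seq (SE, limma adjusted p = 0.0153), where it depends on the 0.5 added to each arm, and -6.50 ± 0.75 in m7G-RIP-seq (SE, limma adjusted p = 5.76e-05), with -6.66 and -6.25 within the replicate sets.

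In the miR-30c-1 pairing, miR-30c-5p, to which both miR-30c hairpins contribute, remained in excess of miR-30c-1-3p in every library. There were 223.4 and 128 reads of it for each read of miR-30c-1-3p in Ctrl and 10.2 and 24.2 in Red. The ratios were 154, 204, 199, 299 and 355 in Input and 23.2, 16.8, 11.1, 13.6 and 15.3 in IP. The groups were far apart in both assays, and the log2 change was -3.46 ± 0.68 in BoRed-seq (SE, limma adjusted p = 0.0211), with -3.90 ± 0.29 for m7G-RIP-seq (SE, limma adjusted p = 2.08e-06). Within the replicate sets of m7G-RIP-seq it was -3.50 and -4.50. Paired with the 3p arm of the other hairpin, miR-30c-2-3p, the change was -1.02 ± 0.47 in BoRed-seq (SE, limma adjusted p = 0.165), with -3.26 ± 0.36 for m7G-RIP-seq (SE, limma adjusted p = 4.42e-05). Reads of miR-30c-5p per read of miR-30c-2-3p were 5.01 and 2.68 in Ctrl and 1.31 and 2.51 in Red. They ran from 3.95 to 13.3 in Input and from 0.548 to 0.905 in IP, where miR-30c-2-3p was the more abundant in every library. Both pairings use the 5p row that the hairpins share, so neither shows the arm balance of 1 hairpin alone.

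miR-30d was the hairpin of the family whose arm ratio was not called. It had 492.98 and 259 reads of the 5p arm for each 3p read in Ctrl, and in Red 455 and 637 reads of the 5p arm against 0 of the 3p arm. The ratio was 9657, 2885, 3134, 2899 and 3144 in Input and 938, 1821, 2844, 3374 and 2407 in IP, which overlapped. The log2 change in m7G-RIP-seq was -0.89 ± 0.48 (SE, limma adjusted p = 0.155). It was -0.56 without Input replicate 1, whose 13 reads of the 3p arm set the highest ratio, and within the sets it was -1.41 and -0.10. In BoRed-seq the value was 1.61 ± 0.62 with 0.5 added to each arm (SE, limma adjusted p = 0.113) and -1.59 with 5 added (limma adjusted p = 0.0448), so that its direction was set by the added counts.

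In m7G-RIP-seq, an exact two-sided permutation test over the 10 libraries, run on each hairpin alone and not adjusted, gave p = 0.00794 for miR-30a, miR-30b, miR-30c-1 and miR-30e, the smallest p that 5 against 5 libraries allow, and p = 0.0476 for miR-30d. This test leaves out the pairing of same-numbered libraries. With the 5 pairs kept, an exact two-sided sign-flip test, added after the data were seen, cannot go below 0.0625. It gave that value for the first 4 hairpins, whose ratio was lower in IP in 5 of 5 pairs. For miR-30d, lower in 4 of 5 pairs, the exact sign-flip p was 0.125. Neither exact test was run on hairpins outside the family, so the share of all hairpins that reach such p-values is not known. In BoRed-seq no exact test of 2 against 2 libraries can go below 0.333. Without Ctrl replicate 1, or without Ctrl replicate 2, limma called 1 of the 5 hairpins, miR-30a, the lone Ctrl library being assumed to vary like the Red libraries. miR-30b, miR-30c-1 and miR-30e lost their calls with adjusted p-values of 0.146 to 0.198 (limma), while their log2 changes stayed at -7.19 and -6.41, -3.06 and -3.87, and -2.88 and -2.64. miR-30c-1 also lost its call without Red replicate 1 (limma adjusted p = 0.0658).

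**Figure D3:**
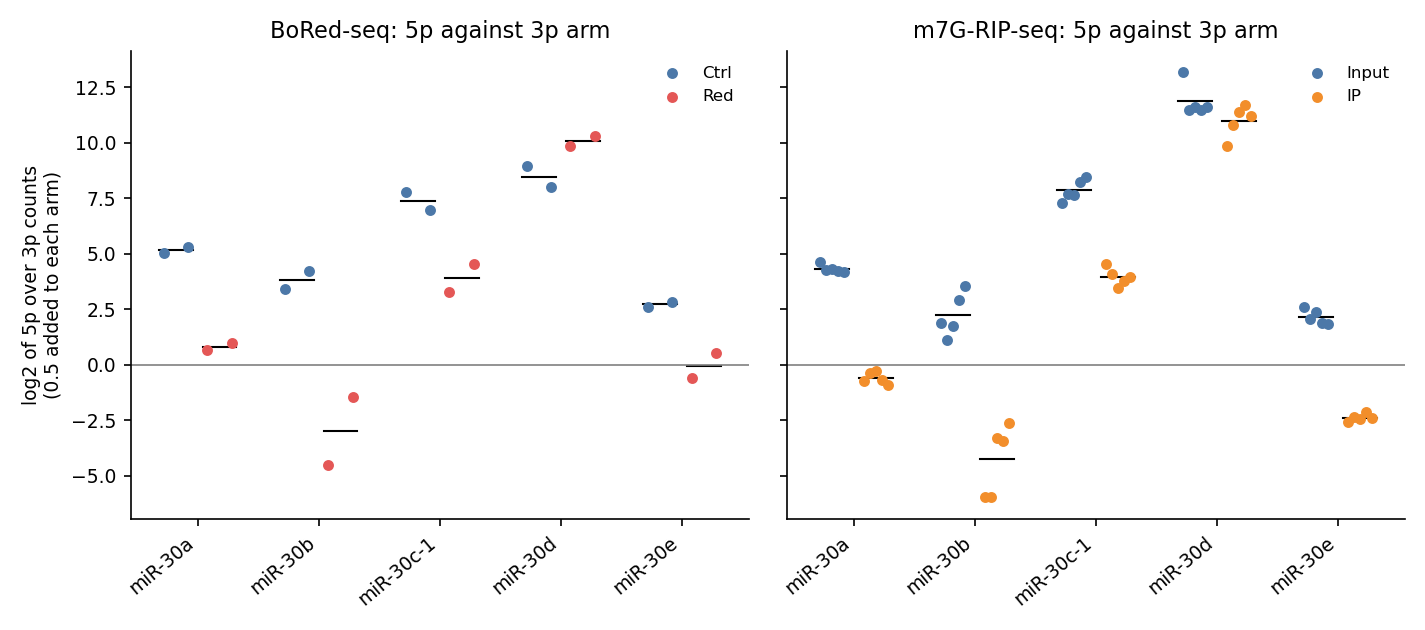
Log2 ratio of 5p to 3p counts, with 0.5 added to each arm, in each library (points) with group means (bars) for the 5 miR-30 hairpins in BoRed-seq (n = 2 per group) and m7G-RIP-seq (n = 5 per group). The horizontal line marks equal arms. The groups are apart for miR-30a, miR-30b, miR-30c-1 and miR-30e, and in miR-30d the Red values rest on 0 counts of the 3p arm.

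**Figure D4:**
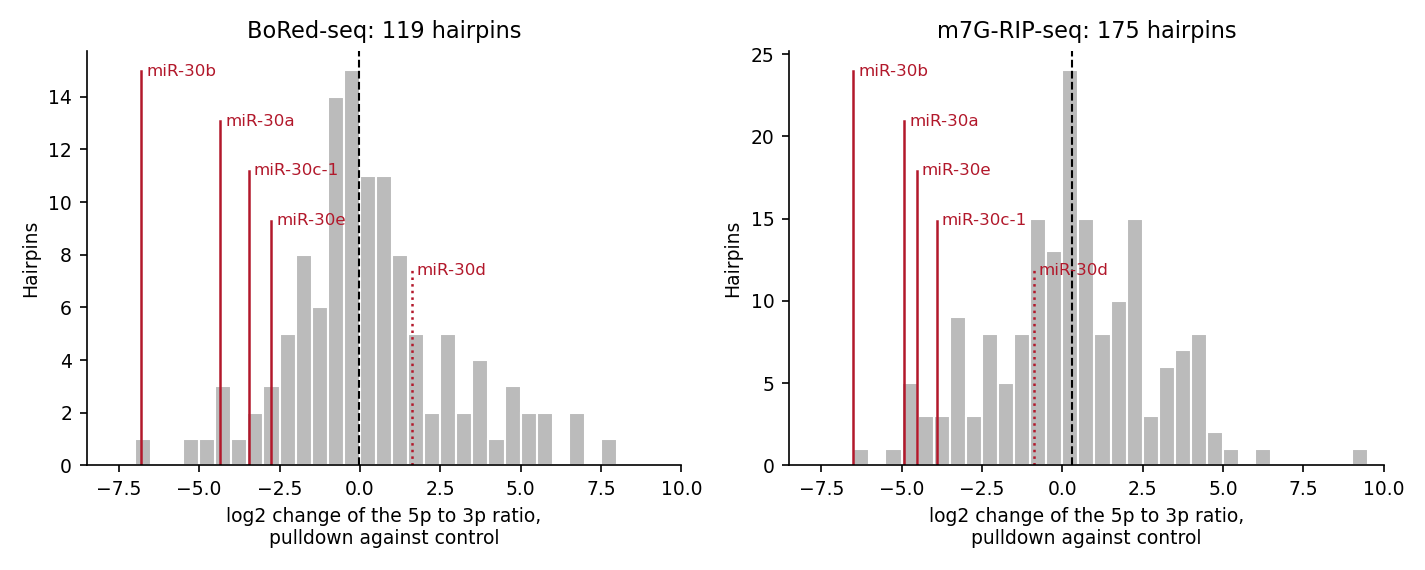
Number of hairpins by the log2 change of their 5p to 3p ratio between pulldown and control, for the 119 hairpins of BoRed-seq and the 175 of m7G-RIP-seq. Red lines mark the miR-30 hairpins (solid where called, dotted where not) and the dashed line is the median of all hairpins, -0.03 and 0.30. miR-30b, whose 5p arm passed the count filter through its control libraries, has the lowest change in both assays.

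Pairs of members that start from like sequences or levels were then set against each other within the libraries. The 3 pairs were chosen after the values were seen, so their ratios are a description with no test. Reads of miR-30d-5p per read of miR-30a-5p were 1.01, 0.969, 1.00, 0.998 and 0.864 in Input and 7.22, 6.21, 6.85, 7.56 and 9.04 in IP. The ratio of these 5p arms was near 1 in Input and 7.58-fold higher in IP. In BoRed-seq it was 0.315 and 0.206 in Ctrl and 0.929 and 0.938 in Red, 3.66-fold higher. Reads of miR-30a-3p per read of miR-30e-3p, which differ by G18A, ran from 6.56 to 8.08 in Input and from 9.73 to 15.3 in IP (1.84-fold higher). In BoRed-seq that ratio was 4.40 to 4.74 in Ctrl and 4.76 to 5.53 in Red, which lay side by side without overlap. Reads of miR-30a-5p per read of miR-30e-5p, which differ by C13U, were 28.5, 30.6, 30.2, 41.5 and 38.7 in Input and 51.7, 61.3, 44.9, 42.6 and 39.8 in IP, which overlapped (1.42-fold higher). The IP values were well above Input in replicates 1 to 3 and close to it in replicates 4 and 5. In BoRed-seq this ratio moved the other way, from 23.6 to 26.2 in Ctrl down to 7.63 and 11.4 in Red.

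Whether the assays moved a member by different amounts was tested on the difference of the log2 enrichments with a two-sided z test adjusted over the 384 miRNAs with a DESeq2 adjusted p in both assays. The difference was called for 38% of those miRNAs and for 3 of the 10 members. miR-30e-5p was 2.02 lower on the log2 scale in m7G-RIP-seq than in BoRed-seq (95% interval of the difference -2.86 to -1.18, adjusted p = 1.98e-05 from the DESeq2 estimates). miR-30d-5p was 1.01 higher (0.29 to 1.73, adjusted p = 0.0185 from the DESeq2 estimates). The call for miR-30d-3p (adjusted p = 0.0268 from the DESeq2 estimates) rests on the Red libraries at 0 counts. With total counts as size factors, the difference for miR-30d-5p was 0.24 and was not called, while miR-30e-5p kept its call and miR-30a-5p and miR-30c-5p gained one. An interaction term in a single DESeq2 fit over all libraries called 4 members, the same 3 and miR-30a-3p, 0.97 higher in m7G-RIP-seq (DESeq2 adjusted p = 0.0268). The 38% belongs to the main z test. The share of all miRNAs called was not taken for the total-count or interaction alternatives, so their calls have no background here. For the members not called, intervals were wide where counts were low, from -2.14 to 2.26 for miR-30b-5p and from -1.94 to 1.44 for miR-30b-3p, so a difference of a few fold was not detectable at this depth. The change of the arm ratio differed between assays in 14.9% of 114 hairpins, and in the family for miR-30e alone of the 5 hairpins (-1.77 ± 0.42, SE, limma adjusted p = 0.0136). That of miR-30d missed the threshold (limma adjusted p = 0.0797), as did those of miR-30a (0.290), miR-30c-1 (0.702) and miR-30b (0.954).

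**Figure D5:**
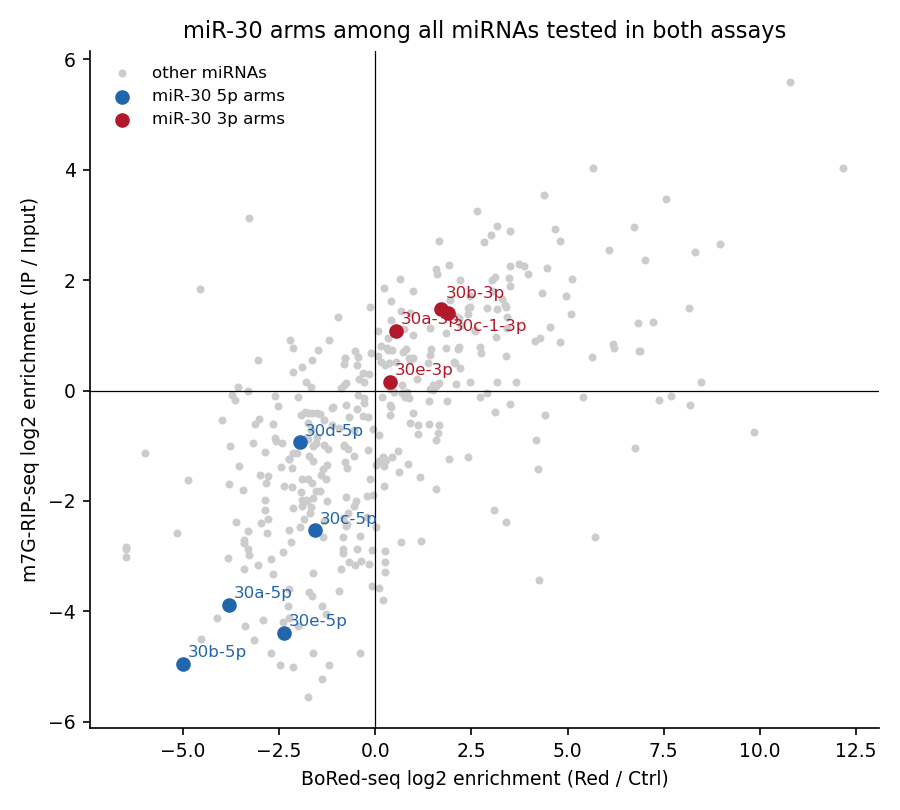
Log2 enrichment in m7G-RIP-seq against that in BoRed-seq for 383 miRNAs tested in both (grey), with miR-30 5p arms in blue and 3p arms in red, and miR-30d-3p left out for its 0 counts in Red. All 5 of the 5p arms lie at the lower left, and the 4 plotted 3p arms lie in the upper right.

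A run of guanines was looked for in the mature sequences, on the RNA strand alone, as the motif GGG. Among the 6 members with a sequence it was held by miR-30c-1-3p alone, in 2 separate runs, and beside the members by miR-30c-2-3p in 1 run, as capitals mark here.
miR-30c-1-3p: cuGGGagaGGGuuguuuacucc
miR-30c-2-3p: cuGGGagaaggcuguuuacucu

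GGG was held by 33.2% of 2370 mature miRNAs in the RefSeq set. As a description over miRNAs tested and with a sequence, the median log2 enrichment was 1.04 with the motif (114 miRNAs) and -0.54 without it (241) in BoRed-seq, and 0.87 (212) and -0.28 (390) in m7G-RIP-seq. miR-30c-1-3p, at 1.90 and 1.40, lay on the side of the first of these groups, and miR-30c-2-3p had log2 values of -0.53 in BoRed-seq with 0.72 in m7G-RIP-seq. miR-30a-3p, enriched in m7G-RIP-seq, held no such run. By hairpin, 29 of the 157 with both sequences in m7G-RIP-seq held GGG in the 3p arm only and had a median change of the arm ratio of -0.87, while in BoRed-seq 18 of 105 did, with a median of 0.10 beside -0.20 for the 58 with the motif in neither arm. In m7G-RIP-seq the 73 with the motif in neither arm had a median of 0.20 and ranged from -5.21 to 5.05, and miR-30a (-4.92) and miR-30e (-4.53), which belong to them, stood near the lower end of that range.

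The miRNAs most like the family's arms were sought by the distance between the pairs of log2 enrichments in the 2 assays. Nearest to miR-30a-5p, among miRNAs outside the family whose normalized counts averaged 100 or more in each assay, were miR-101-3p (distance 0.579), miR-19b-3p (0.924) and miR-21-3p (0.926). Their log2 enrichments were -3.38, -2.93 and -3.14 in BoRed-seq and -4.26, -4.16 and -4.52 in m7G-RIP-seq. Nearest to miR-30c-1-3p, among 237 averaging 20 or more in BoRed-seq and 100 or more in m7G-RIP-seq, were miR-328-3p (0.290), miR-143-3p (0.361) and miR-92a-1-5p (0.387). Of these, miR-143-3p was not called in m7G-RIP-seq (DESeq2 adjusted p = 0.174). The likeness is over 2 values per miRNA.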

How the data were processed

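The authors deposited 1 table of raw counts per assay, in reads per mature miRNA, neither normalized nor pooled, for 14 small RNA libraries. The study's methods name Trimmomatic, STAR against GRCh38/hg38 and featureCounts over miRBase, while the submitters' processing notes list Trimmomatic, Bowtie2 and featureCounts, so the aligner is uncertain. The STAR settings in the study's methods kept reads fitting several loci up to a limit. How such reads were counted is not stated, so rows of near-identical miRNAs may share an uncertain part of their counts.

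DESeq2 1.42.0 (R 4.3.3) was used for the Wald test on miRNAs that reached 10 counts in 2 (BoRed-seq) or 5 (m7G-RIP-seq) libraries, each assay in its own fit, without covariate or shrinkage. The study's methods name this test and tool, and the filter and these settings were chosen here. p-values were adjusted by Benjamini-Hochberg over all miRNAs. Arm ratios were tested with limma 3.58.1, with a variance trend on the smaller arm, adjusted over all hairpins. edgeR 4.0.16, other scalings, filters and library subsets were alternatives. Scripts were tested on simulated data. Size factors by median of ratios assume that most miRNAs keep their level. Most miRNAs tested were nonetheless called, 32.2% enriched and 27.2% depleted in BoRed-seq, with 27.3% and 29.9% in m7G-RIP-seq. The exact counting interval of miR-30b-5p and the floor for miR-30d-3p cover counting error only, and no molecular identifiers were used. The intervals of the assay differences come from the DESeq2 standard errors, which include the spread between libraries.

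Same-numbered Input and IP libraries deviated together from their group means (correlations 0.146 to 0.387). Other-numbered libraries of the same replicate set correlated as well (Input 4 with IP 5, 0.373). The pairs entered only the sign-flip test and the replicate block, and the main DESeq2 and limma tests were unpaired. Replicates differed beyond sampling noise (lowest chi-square divided by its degrees of freedom, 12.6 for BoRed-seq, 30.8 for m7G-RIP-seq), so each library counted as 1 replicate. Members and lists were chosen with earlier results of these data known. The text names all 10 members, miR-30c-2-3p and the 3 nearest miRNAs per reference arm.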

Additional observations from a re-analysis of the deposited data

Results flagged for a closer look

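Input replicate 1, the smallest Input library, stood apart from the other 4 in 3 values of the family, by a gap to its nearest neighbour that exceeded Dixon's limit of 0.71 of the group's range. The gap was 0.753 of the range for miR-30d-3p (log2 normalized count, lower), 0.740 for the 5p to 3p ratio of miR-30a (higher) and 0.927 for that of miR-30d (higher). Of 30 such checks, 3 passed the limit, where chance passes about 1 in 20. The miR-30d values share the same 13 counts of the 3p arm.

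The log2 enrichment differed between the assays, as m7G-RIP-seq minus BoRed-seq, for miR-30e-5p (-2.019), miR-30d-5p (1.012) and miR-30d-3p (4.901), each by a z test on the DESeq2 estimates. The value for miR-30d-3p comes from a fit to Red libraries at 0 counts and is no measure of size. The change of the 5p to 3p ratio of miR-30e differed between the assays by -1.772 on the log2 scale (limma interaction).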

How the results depend on the processing

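In m7G-RIP-seq the counts of 5 depleted and 3 enriched members and of 4 hairpins whose 5p arm fell stayed within 1.5 times under every alternative run (edgeR, TMM or total-count factors, other filters, a replicate block, single libraries left out, either replicate set alone). The replicate block changed no member's call there. In BoRed-seq the count of 6 depleted members stayed within 1.5 times, while the count of 1 enriched member was 2 with edgeR, 0 with TMM factors, 4 with total-count factors, 0 without a count filter, 0 with at least 10 counts in every library, 0 to 0 with a library left out, and 2 with Ctrl thinned to the Red depth. With a replicate block it was 0, but the 2 same-numbered BoRed-seq pairs had a correlation of 0.110 and share only a number. The 4 BoRed-seq hairpins were 1 to 4 with a library left out and 2 with Ctrl thinned. With Ctrl thinned, only miR-30a and miR-30e of these hairpins were tested, and both kept their calls (limma adjusted p = 0.000126 and 0.00667). miR-30c-1-3p, the member called enriched, was tested neither with Ctrl thinned nor with at least 10 counts in every library. Total-count factors moved the enriched share of all calls from 54.2% to 79.2% in BoRed-seq and from 47.8% to 58.6% in m7G-RIP-seq.

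The sign changed in 3 instances where the value was called in one of the fits, all of miR-30d, and in 6 where it was called in neither, for miR-30e-3p and miR-30d-3p. The miR-30d 5p to 3p ratio in BoRed-seq changed by -1.59 with 5 added to each arm. Where miR-30a, miR-30d and miR-30e were summed, the 3p sum, mostly miR-30a-3p, had log2 enrichments of 0.49 in BoRed-seq with 0.98 in m7G-RIP-seq in place of the values of miR-30d-3p, and the 5p sum had -3.16 and -1.81. Counting the 6 sign changes called in neither fit, values of single members and hairpins kept their side of the threshold in 390 fits. They lost the call in 21 and gained one in 9. The lost calls include BoRed-seq fits that gave miR-30d-3p no adjusted p. Each summed value was counted for every member in the sum. Exact permutation p-values were not adjusted over the family. Low counts in Red limit miR-30b, miR-30c-1-3p and miR-30d-3p most. The causes were not tested.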
